A study of Mus musculus with 4 samples.

Results

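The genes described here encode the proteins of the cytosolic ribosome. They were found by symbol, as every protein-coding gene named Rpl or Rps plus a number, with Rplp0, Rplp1, Rplp2 and Rpsa. Genes of the Rps6k kinases, Rps19bp1 and pseudogenes were left out. The rule gave 88 of the 27179 genes in the count files, 54 of the large and 34 of the small subunit, and 87 of them had a count in at least 1 library. Liver RNA came from wild type C57BL/6 mice labelled as male, which were either fasted overnight with free water or, as non-fasted controls, given food and water throughout. There were 2 libraries in each group, set by the sample titles, whereas another label lists fasting for all 4. No further agent or allele is named, the ages are stated only as matched, and nothing says whether a library is 1 mouse or a pool, so a p-value here reflects only how far these libraries vary, which may be technical.

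Each ribosome holds a single copy of most of these proteins, folded around the ribosomal RNAs. The small subunit reads the mRNA and the large subunit joins the amino acids and guides the new chain through an exit tunnel. Most of the mRNAs start with a C followed by a run of pyrimidines, called a 5' terminal oligopyrimidine (TOP) motif, which lets the TOR kinase pathway and the RNA-binding protein LARP1 set their translation and stability with the supply of nutrients. In the liver, fasting is known to lower ribosome content and protein synthesis. The comparison here asks which ribosomal protein mRNAs differed between fasted and non-fasted liver.

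The libraries held 13528015 and 13541405 counts with fasting and 36943535 and 36975921 without. Within a group the spread was close to counting error: over genes with at least 20 counts in the pair, the squared deviation was 1.11 (fasted) and 1.13 (non-fasted) times that error, and 1.01 and 1.14 times over the ribosomal protein genes. The groups differed in more than food. All 14 hepatocyte markers were detected in every library, and they took 13.8% of the counts in each fasted library against 5.63% and 5.66% in the non-fasted libraries. Of the 14 trophoblast markers, genes of the placenta, 13 had counts in each non-fasted library and took 6.14% and 6.19% of all counts there. In the fasted libraries 11 of the 14 were at 0, among them Hand1, Ascl2 and Gcm1, and no marker exceeded 3 counts. Of the 8 markers of Kupffer cells and macrophages, Csf1r and Cd68 were lower in the fasted libraries and the other 6, Clec4f and Marco among them, higher under median of ratios. Xist, which silences an X chromosome in female cells, had 2 and 1 counts with fasting and 25772 and 26316 without, against the male label. Summed shares were also higher in the non-fasted libraries for 8 markers of Kupffer cells and macrophages (0.103 and 0.104% against 0.0364 and 0.0373%), 8 of endothelium (0.0612 and 0.0617% against 0.0232 and 0.0235%), 8 of stellate cells and fibroblasts (0.332 and 0.333% against 0.0194 and 0.0213%) and the 7 erythroid markers found (0.0344 and 0.0365% against 0.0191%). The 8 lymphocyte markers ran the other way, with 0.00198 and 0.00174% with fasting against 0.000809 and 0.000880% without, and 4 of the 7 tested were higher with fasting while 3 did not pass. The 8 proliferation markers took 0.000377 and 0.000429% with fasting against 0.000641 and 0.000717% without, and of the 6 tested 1 was lower with fasting and 5 did not pass. Within the lists the markers were split under median of ratios: in endothelium Clec4g, Stab2 and Tek were higher with fasting and the other 5, Cdh5 and Pecam1 among them, lower, in stellate cells and fibroblasts Reln and Lrat were higher and the other 6, Dcn and Des among them, lower, and of 6 erythroid markers tested 1 was higher and 5 lower. Food and the trophoblast RNA of the non-fasted libraries cannot be told apart as sources of a difference in ribosomal protein mRNAs, and in bulk RNA neither can fewer cells of a type and less RNA per cell.

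Several members are near copies of each other, and this bears on how their reads can be told apart. The first 120 coding bases of 4 of them, from the GENCODE M21 transcripts of the mouse build GRCm38, are shown because the paralogs Rps27l and Rpl36al took nearly all counts of their pairs. Capitals mark bases that differ from the gene printed above each, at 28 of 120 positions in Rps27l and 18 of 120 in Rpl36al.
Rps27 (chr3:90213040-90213615, - strand, 3 coding exons): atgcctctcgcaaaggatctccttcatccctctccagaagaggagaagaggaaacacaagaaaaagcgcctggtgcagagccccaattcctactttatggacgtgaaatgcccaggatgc
Rps27l (chr9:66946175-66947591, + strand, 3 coding exons): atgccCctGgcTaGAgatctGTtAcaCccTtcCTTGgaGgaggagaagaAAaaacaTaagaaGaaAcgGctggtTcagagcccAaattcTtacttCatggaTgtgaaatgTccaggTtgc
Rpl36a (chrX:134585717-134586521, + strand, 3 coding exons): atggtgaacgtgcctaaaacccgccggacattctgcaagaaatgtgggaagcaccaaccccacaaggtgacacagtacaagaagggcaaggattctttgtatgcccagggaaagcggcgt
Rpl36al (chr12:69183017-69183136, - strand, 1 coding exon): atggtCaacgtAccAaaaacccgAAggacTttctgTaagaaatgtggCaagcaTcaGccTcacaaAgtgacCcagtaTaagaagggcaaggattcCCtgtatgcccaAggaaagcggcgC
The coding sequence of Rps27rt, a copy of Rps27 whose first 120 coding bases lie in 1 exon at chr9:114982588-114982707 on the - strand, matched that of Rps27 at all 252 bases. Across their whole coding sequences of 318 bases, Rpl36a and Rpl36al shared 279 bases (87.7%).

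Starts of the mRNAs were searched for the motif that makes them known targets of nutrient control. A TOP start was scored where a C at the annotated start, or within 5 bases of it, was followed by at least 4 C or T, on the strand of the gene. Of the 68 members with a start in the RefSeq promoter table (build GRCm38.p6), 32 had such a start (47.1%), 18 of 42 of the large and 14 of 26 of the small subunit. The same letters were found in 3985 of 18458 genes of the count files (21.6%), in 17 of 69 mitochondrial ribosomal protein genes and in 10 of 47 genes of ribosome biogenesis. The windows below hold 10 bases before and 20 bases from the annotated start, with the matched run in capitals, for 3 members that were among the highest in the fasted libraries relative to the other members (Rps6, Rpl35a and Rps27), 2 that were among the lowest (Rps15a and Rplp2), and 1 of each kind without a match (Rpsa and Rps4x).
Rps6 (chr4:86857348-86857377, - strand): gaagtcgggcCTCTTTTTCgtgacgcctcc
Rpl35a (chr16:33056472-33056501, + strand): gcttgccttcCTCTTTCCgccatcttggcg
Rps27 (chr3:90213629-90213658, - strand): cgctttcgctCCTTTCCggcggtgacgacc
Rps15a (chr7:118116128-118116157, - strand): tttctgccatCTTCCCTCgccggtgagtga
Rplp2 (chr7:141447641-141447670, + strand): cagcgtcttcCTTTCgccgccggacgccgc
Rpsa (chr9:120127756-120127785, + strand): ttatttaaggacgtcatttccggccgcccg
Rps4x (chrX:102189372-102189401, - strand): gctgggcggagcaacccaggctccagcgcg
Matched starts thus occurred among members at both ends of the range. The fitted log2 fold changes of the 32 members with a match ran from -0.36 to 1.205 with a median of 0.12, and those of the 34 tested members with a start in the table but no match from -1.68 to 0.76 with a median of 0.12. A start without a match says only that these letters are not in this window.

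Levels per length differed widely between members. The level was the count scaled to the library total and to kilobases of annotated exons (CPM per kb), averaged over the 4 libraries, for the 85 members with a protein-coding transcript in GENCODE M21. Rplp1, an acidic protein of the P stalk, was highest at 399 CPM per kb, followed by Rps27rt at 301, Rpl8 at 271, Rpl4 at 263 and Rps3 at 206. Rpl13, a standard protein of the large subunit, had 1.72 CPM per kb, and Rps27 had 5.79. In raw counts, Rpl13 had 10, 7, 87 and 65 and Rpl4 5158, 5093, 15874 and 15832 in fasted 1, fasted 2, non-fasted 1 and non-fasted 2, the order used throughout. In all, 25 members had under 100 counts in both fasted libraries, and 17 had at least 1000 counts in every library.

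The low members were mostly those whose coding sequence is repeated elsewhere. Every 50-base window of a member's coding sequence was searched in the GENCODE transcripts of all other loci, pseudogenes included. The 31 members with no unique window had a median level of 6.59 CPM per kb, the 38 with some but under 50% unique windows 26.9, and the 16 with 50% or more 158. The order of these 3 medians was the same in each of the 4 libraries. Rpl13 had no unique coding window and Rpl4 had 79.7% of them unique. Exceptions stood at both ends. Rps27rt was at 301 CPM per kb and Rpl41 at 57.1 with no unique coding window, whereas the paralogs Rpl3l, at 0.196, Rpl39l, at 0.0733, and Rpl10l, at 0, had 87.5 to 100% of them unique. Over the 85 members, which share libraries and depth, Spearman's rho between level and unique coding windows was 0.52, and -0.30 between level and the number of pseudogene loci that share a window. With windows of the whole transcript in place of the coding sequence, rho between level and unique windows was only 0.15. How reads that map to several loci were counted is not given in the sources used here, so the part of such reads in these levels was not tested. Levels of members with few unique windows are therefore uncertain, and so are counts that near copies could share. The fitted fold change did not follow the share of unique windows in the same way, with a Spearman's rho of 0.03 over the 83 members that had both.

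**Figure D1:**
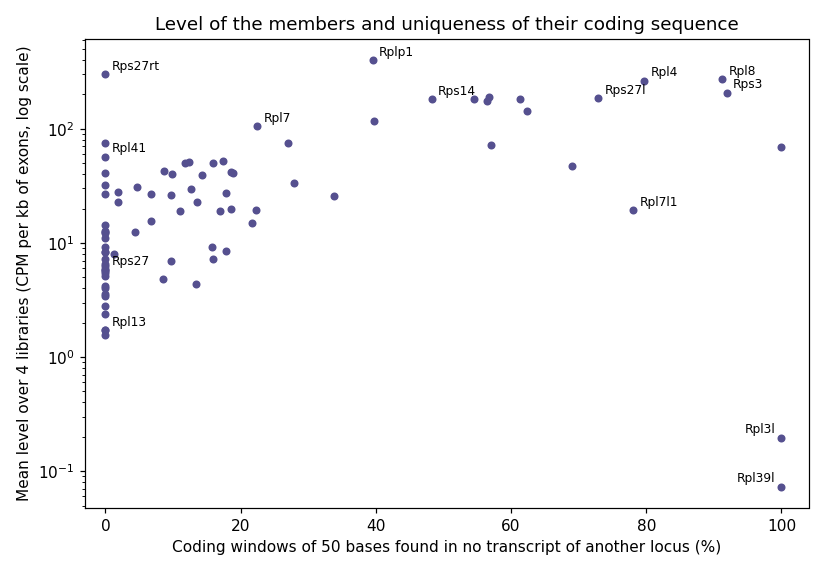
Each point is 1 ribosomal protein gene with a count, with its mean level over the 4 libraries (CPM per kb of exons, log scale) against the percentage of its 50-base coding windows found in no transcript of another locus. Genes with no unique window lie mostly near or below their median of 6.59 CPM per kb, with Rps27rt at 301 as the exception furthest above, and genes with 50% or more have a median of 158.

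Ribosomal protein mRNAs made up a smaller share of the fasted libraries. The 88 members took 0.403% (Wilson 95% interval 0.399 to 0.406%) and 0.402% (0.399 to 0.406%) of the counts with fasting and 0.506% (0.504 to 0.508%) and 0.508% (0.506 to 0.511%) without. Such intervals cover counting error only. The groups did not overlap, and the difference between them was larger than the spread within them. The share of the large subunit was 0.225 and 0.226% in the fasted against 0.268% in both non-fasted libraries, and that of the small subunit 0.178 and 0.176% against 0.238 and 0.240%. Large over small subunit counts gave a ratio of 1.27 and 1.28 with fasting and of 1.12 in both libraries without. Set against other genes of the same library, the gap took another size. The members' counts were 2.92 and 2.91% of those of the 14 hepatocyte markers with fasting and 8.94 and 9.03% without, and 1.98 and 2.00 times those of the 78 mitochondrial ribosomal protein genes with fasting against 2.999 times in both non-fasted libraries.

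The direction of change depended on which genes set the scale. Under median-of-ratios scaling over all genes tested, which takes the typical gene as unchanged, the median log2 fold change of the 86 tested members, fasted over non-fasted, was 0.12 against -0.13 over all 15470 genes tested. Under total counts it was -0.39 against -0.63, and scaled to the 14 hepatocyte markers it was -1.68 against -1.93. A change of scaling moves every gene by nearly the same amount. The members' distance above the median gene was therefore bound to stay alike, while the sign of the median turned with the scaling. Under median of ratios 41 members were higher in the fasted libraries, 14 were lower and 31 did not pass the test (edgeR's quasi-likelihood test, Benjamini-Hochberg adjusted over all genes at 0.05). Of all genes tested, 37.2% were higher and 45.0% lower. Under total counts 9 members were higher and 62 lower, against 22.9% and 62.7% of all genes, and scaled to the hepatocyte markers all 86 were lower, against 4.31% of all genes higher and 90.6% lower. Upper-quartile scaling gave 51 higher and 7 lower. The 14 members lower under median of ratios, of which Rpl3l passed the filter only through the non-fasted libraries, were also lower under total counts and under hepatocyte markers. This adds no support, since both of these scalings move every fold change down from its median-of-ratios value. Of the 41 higher members, 9 were higher and 22 lower under total counts. Without fasted replicate 1 or without fasted replicate 2, 6 members were lower instead of 14, and 5 were lower whichever single library was left out, namely Rps20, Rps4x, Rplp2, Rps15a and Rps19. Of the 41 higher members, 32 were so whichever single library was left out, and among the others Rpl29, Rpl32l, Rpl37a, Rpl7a, Rps2, Rps25, Rps26 and Rps27rt each lost the call without at least 1 of them.

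**Figure D2:**
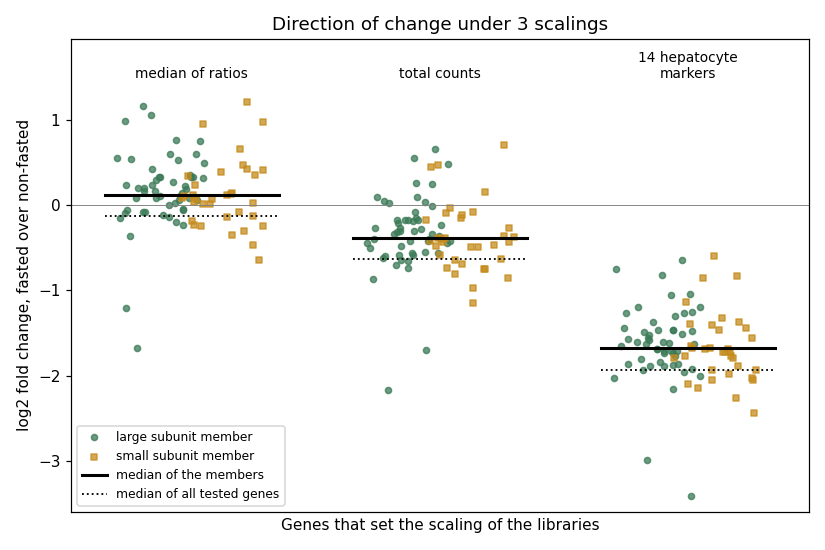
Log2 fold changes, fasted over non-fasted, of the 86 tested members (points, 52 of the large and 34 of the small subunit) under 3 ways of scaling the libraries, with the median of the members (solid line) and of all tested genes (dotted line). The members' median is 0.12 under median of ratios, -0.39 under total counts and -1.68 under hepatocyte markers. Their spread around it stays alike, since a change of scaling moves every gene by nearly the same amount.

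Because of this, the values below are on the median-of-ratios scale unless another is named, and differences between members, which no scaling moves by much, carry the description. To normalize, each count was divided by its library's size factor. As a case, Rps27l was at 1.205 and Rps20 at -0.64 on the log2 scale, 1.84 apart, and the ratio of Rps27l to Rps20 was 3.59-fold higher in the fasted libraries. Of the tested members, 48 had both fasted normalized counts above both non-fasted counts, 16 had both below, and 22 overlapped. Over all genes tested, both fasted counts lay above in 41.7% and below in 50.2%. The groups did not overlap in any of the 55 called members. In parentheses after normalized counts stand the log2 fold change, its SE and the adjusted p.

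In the large subunit 26 members were higher, 6 lower and 20 did not pass the test under median of ratios, whereas under total counts 6 were higher and 37 lower. Rpl4, which lines the exit tunnel and was the most abundant of the subunit, had normalized counts of 10107 and 10018 with fasting and 8042 and 8027 without. Its log2 fold change was 0.32, SE 0.02, adjusted p = 5.79e-07, but -0.18 under total counts and -1.48 under hepatocyte markers. The 5 with the largest rise were Rpl23a, Rpl35a, Rpl36, Rpl36a and Rpl36al. Rpl23a, at the mouth of the exit tunnel where the signal recognition particle docks, had only 82.3 and 64.9 with fasting and 36.0 and 29.9 without (1.16, SE 0.22, adjusted p = 0.00109). Rpl35a, a protein mutated in Diamond-Blackfan anemia, had 741 and 659 with fasting and 349 and 325 without (1.05, SE 0.07, adjusted p = 1.1e-06). Rpl36 had 251 and 287 with fasting and 143 and 129 without (0.98, SE 0.12, adjusted p = 4.88e-05). All 3 stayed above 0 under total counts, at 0.65, 0.55 and 0.48. The paralogs Rpl36a and Rpl36al had like changes, at 0.76 (adjusted p = 0.0018) and 0.75 (adjusted p = 7.93e-08), although Rpl36al had far more counts. Rpl36a had 112 and 119.98 with fasting and 71.9 and 64.9 without. Rpl36al had 1609 and 1646 with fasting and 976 and 963 without. All 5 were below 0 under hepatocyte markers, from -1.05 in Rpl36al to -0.64 in Rpl23a.

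The 5 with the lowest fitted fold change in the large subunit were Rpl3l, Rpl13, Rplp2, Rpl22l1 and Rpl41. Each was also lower under total counts and hepatocyte markers, scalings that move every fold change down. Rpl3l, the muscle paralog of Rpl3, passed the filter only through the non-fasted libraries, where it was higher, so nothing is read from its call. It had raw counts of 1, 2, 19 and 19 and normalized counts of 1.96 and 3.93 with fasting and 9.63 and 9.63 without (-1.68, SE 0.52, adjusted p = 0.0243). Rpl3l also did not pass with DESeq2 (adjusted p = 0.177), a replicate block (adjusted p = 0.0546) or a fixed coefficient of variation of 0.2 (adjusted p = 0.0558), nor without fasted library 1 (adjusted p = 0.204) or fasted library 2 (adjusted p = 0.0589). Rpl13 had 19.6 and 13.8 with fasting and 44.1 and 33.0 without (-1.202, SE 0.36, adjusted p = 0.0121). Both rest on few counts, and Rpl13 too did not pass the test without fasted replicate 1 or without fasted replicate 2. Without non-fasted replicate 1 or non-fasted replicate 2, Rpl3l was left out by the filter. Rpl22l1, the paralog of Rpl22, had 602 and 574 with fasting and 703 and 679 without (-0.23, SE 0.05, adjusted p = 0.00306). Rpl41, one of the shortest proteins known, had 819 and 836 with fasting and 910.4 and 993 without (-0.20, SE 0.06, adjusted p = 0.0157). Rpl34 was lower as well, with 768 and 747 with fasting and 824 and 862 without (-0.15, SE 0.05, adjusted p = 0.0194). Rpl22l1, Rpl41 and Rpl34 lost the call too when either fasted library was left out, and Rpl34 also without non-fasted replicate 2.

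The 3 proteins of the P stalk, the flexible arm that recruits the GTPases of translation, did not move together. Rplp0, its base, had 3845 and 3819.8 with fasting and 3244 and 3275 without (0.23, SE 0.03, adjusted p = 6.62e-05). Rplp1 had 4656 and 4492 with fasting and 4243 and 4228 without (0.11, SE 0.03, adjusted p = 0.0069). Rplp2, which pairs with Rplp1, had 547 and 484 with fasting and 659 and 663 without (-0.36, SE 0.06, adjusted p = 0.000492). Rplp0 and Rplp1 were thus higher and Rplp2 lower under median of ratios, with -0.27, -0.39 and -0.86 under total counts, where all 3 were lower. Their order was the same, since a change of scaling moves all 3 alike. Against the typical change of the ribosomal proteins, Rplp0 was above (0.09, SE 0.03, adjusted p = 0.00561), Rplp2 below (-0.50, SE 0.07, adjusted p = 1.56e-08) and Rplp1 at -0.03 with an adjusted p of 0.393. Rplp0 lost this call without fasted replicate 1, without fasted replicate 2 and without non-fasted replicate 1. In the 5S particle, where Rpl5 and Rpl11 hold the 5S ribosomal RNA, Rpl5 was higher with 145 and 163 with fasting and 104.4 and 108 without (0.53, SE 0.13, adjusted p = 0.00446), and near 0 under total counts (0.03). Rpl11 had 90.1 and 124 with fasting and 99.3 and 103 without, overlapping between the groups (0.08, SE 0.17, adjusted p = 0.662).

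In the small subunit 15 members were higher, 8 lower and 11 did not pass the test under median of ratios, whereas under total counts 3 were higher and 25 lower. Rps3, at the entry of the mRNA channel, was the most abundant and hardly differed, with 8880.4 and 8601 with fasting and 8479.8 and 8602 without (0.03, SE 0.02, adjusted p = 0.215). The 5 with the largest rise were Rps27l, Rps27, Rps6, Rpsa and Rps18. Rps27l, a paralog known as a target of p53, had 3460.5 and 3570.0 with fasting and 1510.2 and 1540.2 without (1.205, SE 0.03, adjusted p = 1.04e-09). Rps27 itself had 70.5 and 94.4 with fasting and 41.0 and 43.1 without (0.97, SE 0.20, adjusted p = 0.00185). Rps6, the protein phosphorylated by S6 kinase when TOR is active, had 186 and 201 with fasting and 112 and 87.7 without (0.95, SE 0.16, adjusted p = 0.000556). Both groups stood well apart in these, and Rps27l and Rps6 were higher under total counts too (0.70 and 0.44). Rpsa, also known as the laminin receptor, had 560.4 and 594 with fasting and 354 and 375 without (0.66, SE 0.07, adjusted p = 1.42e-05). Rps18, at the head of the subunit, had 774 and 747 with fasting and 524 and 571 without (0.47, SE 0.06, adjusted p = 0.000111). Under hepatocyte markers these 5 were lower, from -1.33 in Rps18 to -0.60 in Rps27l, and Rps18 was at the same time near 0 under total counts (-0.03).

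The 5 with the largest fall in the small subunit were Rps20, Rps4x, Rps15a, Rps19 and Rps24. Each was also lower under total counts and hepatocyte markers, which move every fold change down. Rps20 had 2400.4 and 2457 with fasting and 3754 and 3807 without (-0.64, SE 0.03, adjusted p = 1.3e-07). Rps4x, encoded on the X chromosome, had 733 and 675 with fasting and 939 and 1004 without (-0.46, SE 0.06, adjusted p = 0.000108). Both were well separated between the groups. Rps15a had 758 and 704 with fasting and 954 and 911 without (-0.35, SE 0.05, adjusted p = 0.000289). Rps19, the gene most often mutated in Diamond-Blackfan anemia, had 1428 and 1296 with fasting and 1678 and 1679 without (-0.30, SE 0.04, adjusted p = 0.000198). Rps24, another gene of that disease, had 598 and 563 with fasting and 694 and 686 without (-0.25, SE 0.05, adjusted p = 0.00167). Among the smaller falls, Rps16 had 878 and 930.4 with fasting and 1075 and 1043 without (-0.23, SE 0.05, adjusted p = 0.00148). Rps14, which lies near the decoding site and is lost in the 5q- syndrome, had 4238 and 4189.6 with fasting and 4655 and 4602 without (-0.14, SE 0.03, adjusted p = 0.00208). Rps14 did not pass the test without fasted replicate 1 or without fasted replicate 2. Rps16 lost the call without fasted replicate 1 and Rps24 without fasted replicate 2.

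**Figure D3:**
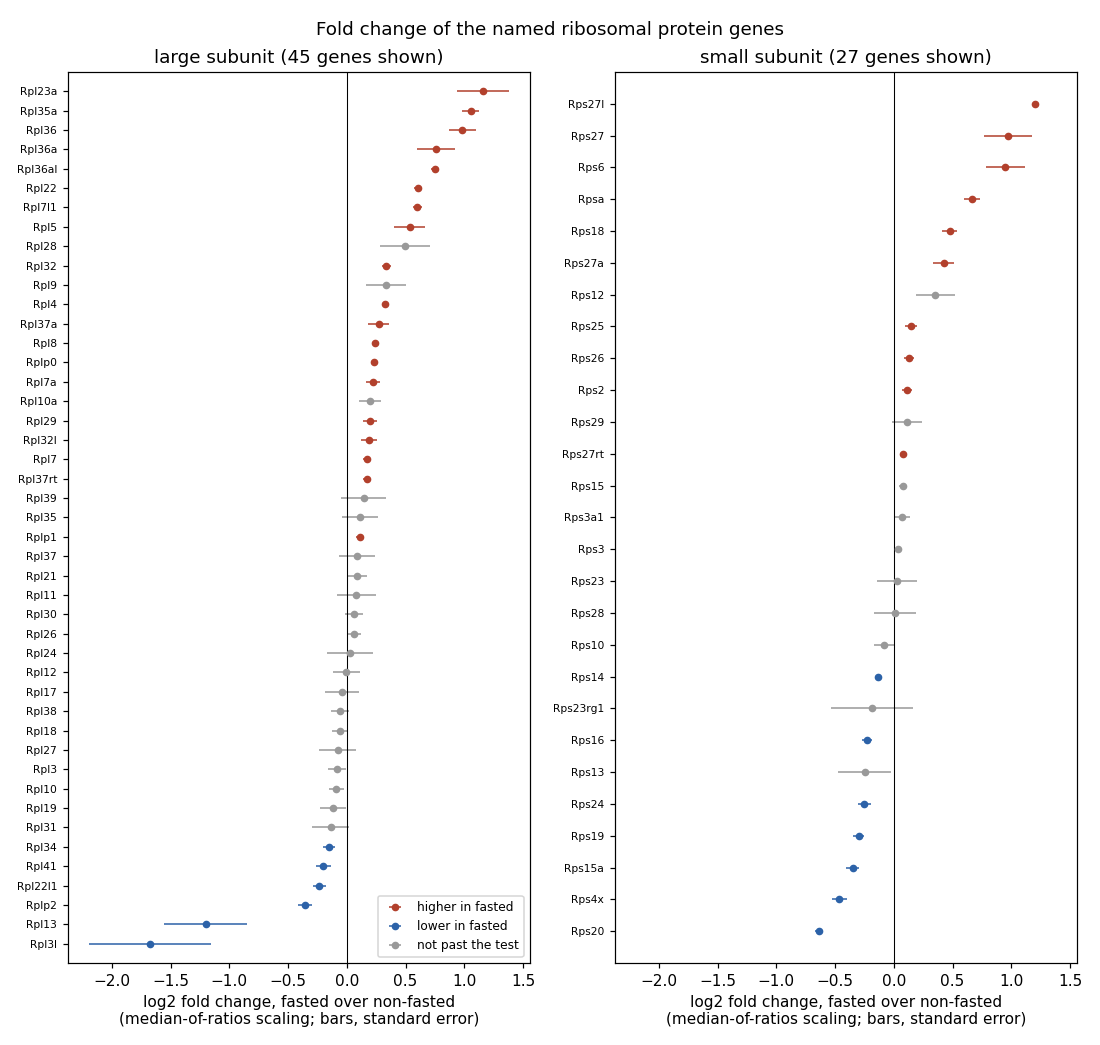
Fitted log2 fold change, fasted over non-fasted, under median-of-ratios scaling, of the tested members named in the text, by subunit and in the order of the change. Bars are standard errors and colours give the call (higher, lower or not past the test at an adjusted p of 0.05). The quartiles of the 86 members are -0.08 and 0.35, Rps27l is highest at 1.205 and Rpl3l lowest at -1.68, and under total counts the median of the 86 moves from 0.12 to -0.39.

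Scaled to the ribosomal proteins themselves, 51 of the 86 tested members moved apart from their own typical change, 29 above it and 22 below, while 35 did not pass the test. The scaling factor here was the median of ratios over 80 members outside the listed paralogs, and on this scale 33.2% of all genes were higher and 50.5% lower. Most of these calls were lost with a fixed coefficient of variation of 0.2. The share of members above was close to that of all genes, and the share below was smaller, so the counts do not set the members apart. Those farthest above were Rps27l (1.07, SE 0.03, adjusted p = 1.76e-31), Rpl23a (1.02, SE 0.22, adjusted p = 5.86e-05), Rpl35a (0.91, SE 0.08, adjusted p = 2.14e-15), Rpl36 (0.84, SE 0.12, adjusted p = 6.83e-09) and Rps27 (0.83, SE 0.20, adjusted p = 0.000269). Those farthest below were Rpl3l, whose -1.81 is given as a value alone, Rpl13 (-1.34, SE 0.34, adjusted p = 0.000355), Rps20 (-0.78, SE 0.03, adjusted p = 4.42e-26), Rps4x (-0.60, SE 0.06, adjusted p = 1.34e-12) and Rplp2 (-0.50, SE 0.07, adjusted p = 1.56e-08). Adjusted p-values of this fit moved widely with how the spread was pooled, for Rps27l from 0.000706 with a fixed coefficient of variation of 0.2 to 2.01e-95 with a filter of 1 CPM in 2 libraries. Whichever single library was left out, 18 members were above and 14 below. Rpl3l was not among these, since it did not pass without fasted replicate 1 and was not tested without a non-fasted library. Of the 30 large subunit members outside the universally conserved and the paralog lists 9 were above and 7 below, and of the 18 universally conserved ones 8 were above and 2 below. In the small subunit, 4 of the 15 universally conserved members were above and 6 below, and 5 of the other 17 were above and 5 below. Of the 14 tested members with 50% or more unique coding windows, a subset taken after the data had been seen, 10 were above and 3 below.

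The 31 members that did not pass the test under median of ratios were of 2 kinds, in normalized counts of fasted 1, fasted 2, non-fasted 1 and non-fasted 2. Rps3, Rps15 and Rps3a1, abundant ones, differed little. Rps15 had 2749, 2703, 2577 and 2604. Rps3a1 had 1011, 1202, 1032 and 1072. With Rps3, above, their fitted log2 fold changes lay between 0.03 and 0.07, and all 3 were below 0 under total counts, from -0.47 to -0.43. Others had between 100 and 600 normalized counts. Rpl10 had 537, 492, 537 and 557. Rpl18 had 523, 486, 542 and 512. Rpl26 had 462, 488, 463 and 448. The first of these, Rpl10, joins the large subunit last. Rpl30 had 443, 525, 472 and 454. Rpl38 had 347, 405, 396 and 387. Rpl3 had 337, 378, 371 and 386. Rpl3 sits near the peptidyl transferase center. Rpl21 had 284, 317, 287 and 279. Rps10 had 233, 242, 249 and 256. Rpl10a had 231, 256, 216 and 208. Their fitted log2 fold changes lay between -0.09 (Rpl10) and 0.20 (Rpl10a). Rpl19 had 169, 201, 205 and 196. Rpl12 had 153, 169, 165 and 158. Rpl37 had 145, 175, 163 and 138. Rps12 had 157, 114, 111 and 101.

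The rest were low. Rps29 had 129, 126, 118 and 119. Rpl31 had 109.7, 112, 113 and 131. Rpl9 had 106, 106, 77.5 and 90.7. Rpl9, with its groups apart, had a fitted change of 0.33 (0.17 SE). Rpl11 had 90.1, 124, 99.3 and 103. Rpl35 had 106, 106, 92.7 and 103. Rpl17 had 99.9, 94.4, 98.3 and 102. Each of the 3 had a fitted change smaller than its standard error. Rpl27 had 94.1, 96.4, 105 and 95.8. Rpl24 had 98.0, 90.5, 81.6 and 103. Rps28 had 96.0, 74.7, 80.6 and 89.2. Their fitted changes were -0.08, 0.03 and 0.01, each within its standard error. Rps23 had 76.4, 98.3, 87.1 and 84.7. Rps13 had 49.0, 80.6, 81.6 and 72.5. Rpl28 had 72.5, 59.0, 42.6 and 50.7. Rpl28 had the largest fitted change of the 31, 0.50, SE 0.22, adjusted p = 0.0594. Rpl39 had 56.8, 66.9, 57.2 and 54.8. Rps23rg1 had 37.2, 15.7, 27.9 and 32.4. Of the 31 members, 17 had under 100 counts in both fasted libraries, and changes of the size seen in Rpl4 were not detectable at that depth.

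The filter on low counts left out 2 members. Rpl10l, a testis paralog of Rpl10, had no count in any library, which allows up to 3 counts per library. Rpl39l, the testis paralog of Rpl39, had 0 counts in both fasted libraries and 4 and 5 in the non-fasted libraries. Where a protein has a paralog, the mix of the pair can be read within a library, free of any scaling, although it is a ratio of counts and not per length, and the paralogs' intervals here are Wilson 95% intervals. Rpl22l1 took 18.8% (17.0 to 20.8%) and 17.3% (15.5 to 19.1%) of the pair's counts in the fasted libraries and 28.8% (27.6 to 30.1%) and 27.6% (26.4 to 28.9%) in the non-fasted libraries. Rpl22 itself was higher in the fasted libraries under median of ratios and total counts, with 2594 and 2752 with fasting and 1737 and 1778 without (0.60, SE 0.04, adjusted p = 4.3e-07), while Rpl22l1 was lower, so the pair moved in opposite directions, though under hepatocyte markers both were lower (-1.196 and -2.03). Rpl7l1, a paralog known from ribosome assembly, took 36.3% (34.4 to 38.3%) and 36.9% (35.01 to 38.9%) of the pair's counts in the fasted libraries and 30.2% (29.1 to 31.2%) and 30.0% (28.9 to 31.0%) in the non-fasted libraries. It was higher than Rpl7 in fold change, with 1630.3 and 1696 with fasting and 1092 and 1103 without (0.60, SE 0.04, adjusted p = 4.33e-07) against 2855 and 2893 with fasting and 2529.5 and 2577 without for Rpl7 (0.17, SE 0.03, adjusted p = 0.00088). In both pairs the intervals of the fasted and non-fasted libraries did not overlap.

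A further pair is Rps4l, a gene annotated as a transcribed pseudogene and so no member, and Rps4x. Rps4l took 21.3% (17.8 to 25.2%) and 26.2% (22.4 to 30.4%) of the pair's counts in the fasted libraries and 49.1% (47.5 to 50.7%) and 47.3% (45.7 to 48.9%) in the non-fasted libraries. It had 198 and 240.0 with fasting and 905 and 899 without (-2.04, SE 0.07, adjusted p = 9e-09). Rpl36al took 93.5% (91.7 to 94.96%) and 93.2% (91.4 to 94.7%) of the pair's counts in the fasted libraries and 93.1% (92.0 to 94.1%) and 93.7% (92.5 to 94.7%) in the non-fasted libraries, and all 4 intervals overlapped. Rps27l took 98.0% (97.2 to 98.6%) and 97.4% (96.6 to 98.1%) of the pair's counts in the fasted libraries and 97.4% (96.7 to 97.9%) and 97.3% (96.6 to 97.8%) in the non-fasted libraries. Both partners of that pair were higher in the fasted libraries under median of ratios, and the 4 intervals of their mix overlapped. Rps27 had only 36, 48, 81 and 85 raw counts and no unique coding window. Its copy Rps27rt, with the same coding sequence and 1283, 1319, 4762 and 4772 raw counts, was not part of this mix. An unchanged mix of Rps27 and Rps27l is therefore not read from these shares. Rpl3l took 0.578% (0.102 to 3.20%) and 1.03% (0.283 to 3.68%) of the pair's counts in the fasted libraries and 2.53% (1.62 to 3.91%) and 2.43% (1.56 to 3.77%) in the non-fasted libraries. Rpl39l took 0% (0 to 11.7%) and 0% (0 to 10.2%) of the pair's counts in the fasted libraries and 3.42% (1.34 to 8.46%) and 4.42% (1.90 to 9.94%) in the non-fasted libraries. These last pairs rest on few counts.

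**Figure D4:**
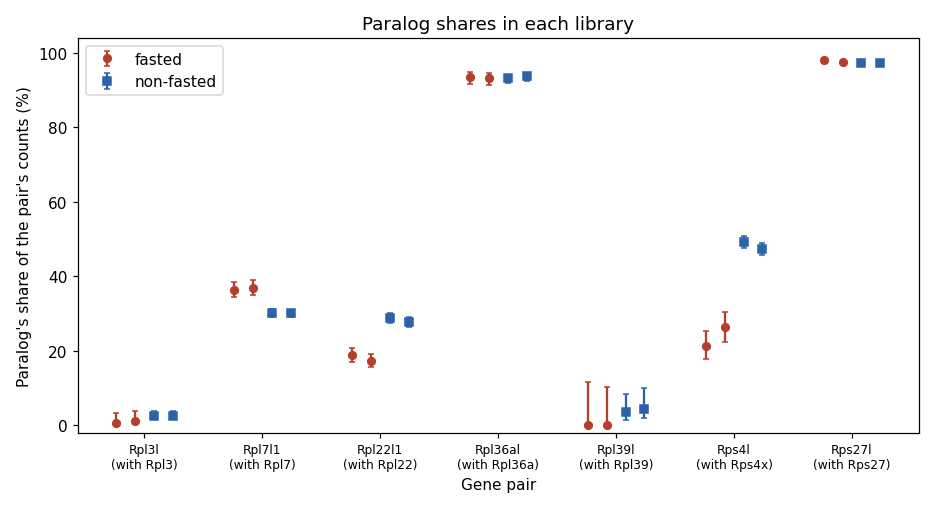
Share of a pair's counts taken by the paralog (percent, Wilson 95% intervals) in each fasted (circles) and non-fasted (squares) library. Rps4l and Rpl22l1 have smaller shares in both fasted libraries and Rpl7l1 a larger one, while Rpl36al and Rps27l take between 93.1% and 98.0% in all 4 libraries. Rps27rt, a copy of Rps27, is not counted in the pair of Rps27 and Rps27l.

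Near copies named as retrogenes were looked at after the data had been seen. Rps27rt, with the coding sequence of Rps27 base for base, had 1283, 1319, 4762 and 4772 raw counts against 36, 48, 81 and 85 for Rps27, and 2514 and 2594 with fasting and 2413 and 2419 without in normalized counts (0.08, SE 0.03, adjusted p = 0.0424), and it was lower under total counts (-0.42). Rpl37rt had 1836, 1812, 6248 and 6326 raw counts against 74, 89, 322 and 273 for Rpl37. Its normalized counts were 3598 and 3564 with fasting and 3165 and 3207 without (0.17, SE 0.03, adjusted p = 0.000663, and -0.34 under total counts). The copies held 96.5 to 98.3% and 95.1 to 96.1% of the counts of their pairs. Rpl32l held 11.2 to 12.5% of the counts of its pair with Rpl32, and was higher under median of ratios with 419 and 448 with fasting and 382 and 379.7 without (0.19, SE 0.06, adjusted p = 0.0241, and -0.32 under total counts). Rps27rt and Rpl32l did not pass the test without fasted replicate 2 or without either non-fasted library. How reads shared by such copies were assigned was not tested. The 35 genes with pseudogene names of ribosomal proteins, Rps4l among them, held 1755, 1726, 9425 and 9144 counts in all, 3.22 and 3.17% of the members' counts with fasting and 5.04 and 4.87% without. Rps15a-ps4, the highest, had 646, 575, 3523 and 3380 counts, more than the 387, 358, 1883 and 1796 of its parent Rps15a.

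Fau, a ribosomal protein gene under another symbol, encodes the small subunit protein eS30 fused to a ubiquitin-like protein. It had 508 and 507 with fasting and 319 and 302 without (0.71, SE 0.07, adjusted p = 1.02e-05), and was at 0.21 under total counts and -1.09 under hepatocyte markers. Among the members, Rps27a is made as a fusion to ubiquitin and had 282 and 273 with fasting and 212 and 202 without (0.42, SE 0.09, adjusted p = 0.00186). It was at -0.08 under total counts and -1.38 under hepatocyte markers, so that both were higher under median of ratios and below 0 under hepatocyte markers.

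Other genes of the ribosome and of translation were set beside the members by the same fit. Shares over all genes tested were 37.2% higher and 45.0% lower under median of ratios. Of the 78 mitochondrial ribosomal protein genes, 68 were higher, 3 lower and 7 did not pass under median of ratios, and their median on the log2 scale was 0.73, turning to 0.22 under total counts and -1.07 under hepatocyte markers. This is further up than the members' 0.12, -0.39 and -1.68 on each scale. Mrpl12, of the large mitochondrial subunit, rose most and was the most abundant in the fasted libraries, with 2132 and 2203 with fasting and 736 and 767 without (1.53, SE 0.04, adjusted p = 8.02e-10). In the non-fasted libraries it had 1453 and 1513 raw counts, under the highest of the list there, 2006 and 2027. Mrpl28 and Mrpl50 were at 1.38 and 1.29, while Mrps6 was lower with 167 and 208 with fasting and 397 and 396 without (-1.08, SE 0.10, adjusted p = 6.52e-06). Of 56 genes of ribosome biogenesis 36 were higher, 6 lower and 14 did not pass, with a median of 0.31 (-0.19 under total counts and -1.49 under hepatocyte markers). Las1l, of the pre-rRNA cleavage complex, had 1079.7 and 1066 with fasting and 2899 and 2965 without (-1.45, SE 0.04, adjusted p = 1.55e-09). Nvl, an assembly ATPase, had 343 and 366 with fasting and 883 and 859 without (-1.30, SE 0.06, adjusted p = 4.9e-08). These 2 were lower on every scale, of which total counts and hepatocyte markers move every fold change down. Wdr12, of the PeBoW complex, had 315 and 362 with fasting and 139.8 and 132 without (1.317, SE 0.10, adjusted p = 2.75e-06). Nop10, of the H/ACA particle, had 1276 and 1241 with fasting and 534 and 509 without (1.27, SE 0.05, adjusted p = 1.06e-08). Both were above 0 under total counts too (0.81 and 0.77) and below 0 under hepatocyte markers. Ncl, nucleolin and the most abundant of the list, had 4615 and 4725 with fasting and 4827 and 4828 without (-0.05, SE 0.03, adjusted p = 0.142).

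Of 37 translation factors 25 were higher, 7 lower and 5 did not pass under median of ratios, with a median of 0.25 (-0.25 under total counts and -1.55 under hepatocyte markers). Over all genes tested, 37.2% were higher and 45.0% lower under median of ratios. The elongation factor Eef1a1, the most abundant and a TOP gene, had 42579.8 and 42814 with fasting and 21169.5 and 21184 without (1.01, SE 0.01, adjusted p = 2.02e-13). The initiation factor Eif5 had 9425 and 9376 with fasting and 4893 and 4901 without (0.94, SE 0.02, adjusted p = 1e-09). Eif4b, which aids the helicase of initiation and is a TOP gene, had 8886 and 8929.9 with fasting and 4694 and 4689 without (0.93, SE 0.02, adjusted p = 1.25e-09). Eif3i had 2018 and 1973 with fasting and 1171 and 1167 without (0.77, SE 0.03, adjusted p = 3.69e-08). These 4 were above 0 under total counts too, from 0.27 to 0.51, and below 0 under hepatocyte markers. Among the 16 other genes known for TOP starts, 8 were higher, 5 lower and 3 did not pass, with a median of 0.15 (-0.35 under total counts and -1.65 under hepatocyte markers). Nap1l1, a histone chaperone, had 1048 and 1129 with fasting and 635 and 668 without (0.74, SE 0.05, adjusted p = 1.25e-06). Vim, an intermediate filament protein of fibroblasts and other mesenchymal cells, had 218 and 258 with fasting and 3207 and 3160.0 without (-3.74, SE 0.06, adjusted p = 4.96e-11). Of the 8 stellate cell and fibroblast markers above, 6 were lower like Vim and 2, Reln and Lrat, were higher. The part of these cells in the fall of Vim was not tested.

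Of 19 genes of the TOR pathway and of TOP control, 8 were higher, 8 lower and 3 did not pass under median of ratios, and 3 were higher and 12 lower under total counts. Over all genes tested, 37.2% were higher and 45.0% lower under median of ratios, and 22.9% and 62.7% under total counts. The list's counts under median of ratios were near these shares. Larp1, the TOP-binding repressor and the most abundant of the list, had 4912 and 5059 with fasting and 2822 and 2892 without (0.80, SE 0.03, adjusted p = 1.58e-08, and 0.30 under total counts but -0.997 under hepatocyte markers). The falls were larger. Castor1, an arginine sensor upstream of TOR, had 27.4 and 3.93 with fasting and 199 and 194 without (-3.64, SE 0.32, adjusted p = 6.55e-06). Its raw counts were 14, 2, 393 and 383. It passed the filter only through the non-fasted libraries, where it was higher, so nothing is read from its call. Ddit4, an inhibitor of TOR induced by stress, had 165 and 157 with fasting and 1175 and 1271 without (-2.92, SE 0.09, adjusted p = 4.65e-09). Eif4ebp1, the repressor of cap-dependent initiation, had 607 and 625 with fasting and 2126 and 2141 without (-1.79, SE 0.04, adjusted p = 5.65e-10). Sesn2, a leucine sensor, had 208 and 193 with fasting and 552 and 559 without (-1.47, SE 0.07, adjusted p = 9.08e-08). Ddit4, Eif4ebp1 and Sesn2 were lower on every scale run, of which total counts and hepatocyte markers move every fold change down. The groups of these genes were far apart. The trophoblast markers were higher in the same libraries, and their part in these falls cannot be told apart from that of food.

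**Figure D5:**
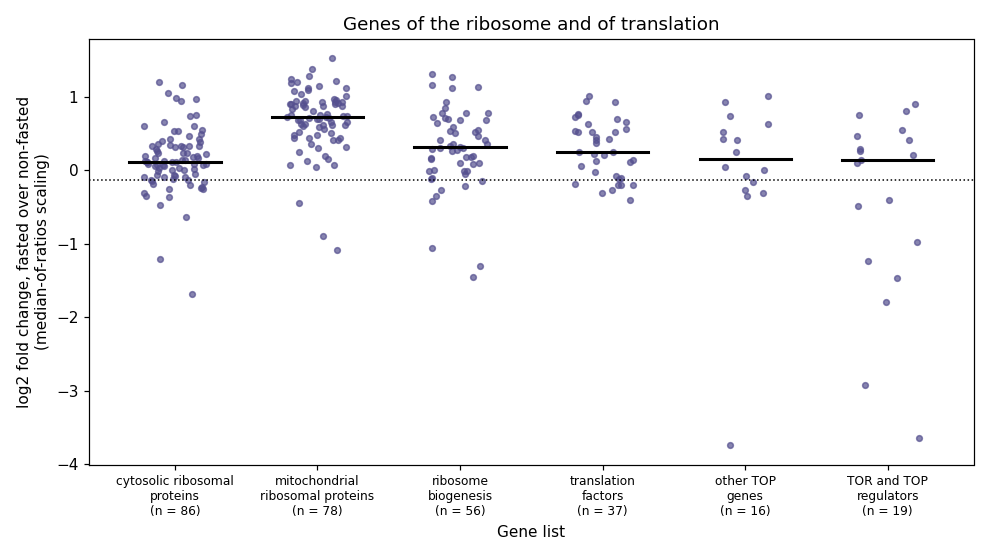
Log2 fold changes, fasted over non-fasted, under median-of-ratios scaling, of the tested genes (points) of the cytosolic and mitochondrial ribosomal proteins, ribosome biogenesis, translation factors, other TOP genes and TOR and TOP regulators. Bars are medians and the dotted line is the median of all tested genes, -0.13. The median is 0.12 for the cytosolic and 0.73 for the mitochondrial ribosomal proteins, and turns to -0.39 and stays at 0.22 under total counts, with both below 0 under hepatocyte markers.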

How the data were processed

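Bulk RNA sequencing of mouse liver gave 2 libraries labelled fasted and 2 non-fasted. The authors deposited raw counts per gene by Entrez identifier, without normalization. Per the submitters' processing notes, reads were handled with FastQC, MultiQC, Trimmomatic, STAR, featureCounts and DESeq2 1.32.0 on the build GRCm39. For strand and multi-mapping reads, the setting is not given in the sources used here. Gene names came from tables of GRCm38, which left 1904 identifiers without a name, and coordinates here are those of GRCm38 sequences. Total counts per library were 13528015 to 36975921.

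Analysis used edgeR 4.0.16 under R 4.3.3. After filterByExpr, median-of-ratios size factors entered a two-sided quasi-likelihood test, adjusted over all genes by Benjamini-Hochberg at 0.05. The SE is the absolute log2 fold change over the square root of F. Members and gene lists were chosen with earlier results of these data known. Named members were the most abundant of each subunit, the P stalk, the 5 largest rises and 5 largest falls of each subunit, those not past the test, lower or left out by the filter, paralog pairs, and the 5 farthest from the typical change on each side. In other lists, up to 4 with the largest change and the most abundant were named. Retrogenes, pseudogenes and unique windows were chosen after the values were seen. Alternatives were other scalings and filters, DESeq2 1.42.0, limma 3.58.1 (voom), the negative binomial deviance computed exactly, a fixed coefficient of variation of 0.2, a replicate block, leaving out each library, and adding the counts of 32 pseudogenes to their parents. The test was tested on simulated data of this comparison with 15045 genes, where it called 22 of 50 genes at a 1.2-fold change, 37 of 50 at 1.5-fold and 50 of 50 at 2-fold, beside 7 false calls. The simulation used a small fixed spread, left most genes equal between the groups and changed the rest evenly up and down. In the real libraries most genes were called, so these rates do not carry over to them. Protein sequences were not used here. Single values of some genes are not reported here. Python 3.11.15 and matplotlib 3.10.9 made the plots.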

Additional observations from a re-analysis of the deposited data

How the results depend on the processing

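Scaling decided the direction. Members higher and lower numbered 41 and 14 under median of ratios, 51 and 7 under upper quartile, 9 and 62 under total counts and, scaled to hepatocyte markers, 0 and 86, with median log2 fold changes of 0.12, 0.24, -0.39 and -1.68. TMM scaling gave 42 and 14. At 0 higher, unadjusted p-values under 0.05 gave none either, since all 86 passed as lower. Of the 41 higher members, 27 were below 0 under total counts and all 41 under hepatocyte markers. Among the most abundant, the P stalk, the largest rises and the paralog pairs, the values reported one by one were, under total counts, Rpl4 -0.180, Rps18 -0.030, Rplp0 -0.271, Rplp1 -0.394 and Rpl7 -0.334 and, under hepatocyte markers, Rpl4 -1.476, Rpl23a -0.639, Rpl35a -0.747, Rpl36 -0.817, Rpl36a -1.039, Rpl36al -1.053, Rps27l -0.596, Rps27 -0.828, Rps6 -0.849, Rpsa -1.136, Rps18 -1.325, Rplp0 -1.567, Rplp1 -1.689, Rpl7 -1.630, Rpl22 -1.196 and Rpl7l1 -1.201. A fixed coefficient of variation of 0.2 left 9 higher, 2 lower and 9 apart from the typical change, against 51. Without 1 library, higher counts ran from 34 to 38, lower counts from 6 to 12, medians from 0.11 to 0.22 and members apart from 38 to 45, where a library left alone in its group is assumed to vary like the other group. Members with 50% or more unique coding windows, an alternative chosen after seeing the data, gave 10 higher, 1 lower, a median of 0.31 and 13 apart, of 14 tested. With a replicate block 42 were higher and 13 lower, and replicate numbers did not pair the libraries (correlation of deviations -0.00525 between the libraries numbered 1). DESeq2 gave 32 higher and 11 lower, and, with the size factors of the ribosomal proteins, an alternative chosen after seeing the data, 37 apart. DESeq2 with its own size factors was not run for that result, since it would repeat the first comparison. Higher and lower members numbered 41 and 13 with limma-voom and 42 and 13 with the exact deviance. The members' share of counts was 0.402% in fasted and 0.507% in non-fasted libraries on average, 0.414% and 0.527% with pseudogene counts added, and 0.507% and 0.617% without the 20 most abundant genes. Depth limits the 25 members under 100 counts in both fasted libraries.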

Other observations

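Noncoding RNAs that host small nucleolar RNAs and start with a TOP motif were set beside the ribosomal proteins. Of 7 such genes, 5 were higher and 2 did not pass the test under median of ratios, with a median log2 fold change of 0.43, while under total counts 3 were higher and 3 lower, with a median of -0.08, and under hepatocyte markers the median was -1.37. Over all genes tested, 37.2% were higher and 45.0% lower under median of ratios, and 22.9% and 62.7% under total counts. Gas5, a host whose RNA is degraded in the course of translation, had normalized counts of 2588 and 2667 with fasting and 1280.2 and 1234 without (1.06, SE 0.04, adjusted p = 5.84e-09). Snhg8 had 592 and 631 with fasting and 208 and 235 without (1.46, SE 0.08, adjusted p = 2.68e-07). Snhg12 had 284 and 289 with fasting and 159.6 and 166 without (0.82, SE 0.09, adjusted p = 3.51e-05). Zfas1 had 472 and 460.3 with fasting and 344 and 350.3 without (0.43, SE 0.06, adjusted p = 0.000219). The groups did not overlap in any of the 4, and all 4 were lower under hepatocyte markers, with Zfas1 also at -0.08 under total counts.

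Of 7 replication-dependent histone genes, a class whose mRNAs generally lack a poly(A) tail, 5 passed the filter. Of these, 1 was higher, 1 lower and 3 did not pass the test under median of ratios, whereas all 5 were lower under total counts. Over all genes tested, 37.2% were higher and 45.0% lower under median of ratios, and 62.7% were lower under total counts. Summed over the 7, the histone genes took 0.0132 and 0.0137% of the fasted and 0.0184% of both non-fasted libraries. Most of the sum was H2bc4, with 1328, 1285, 3867 and 3818 raw counts, and H1f2, with 509, 484, 2851 and 2857. None of the others had more than 56 counts in a library, so the sum does not describe all 7.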
